A study of Rattus norvegicus with 6 samples.

Results

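The genes of the tumour necrosis factor (TNF) ligand and receptor superfamilies were described in rat kidney RNA sequencing. Members were chosen by name: every gene called Tnfsf or Tnfrsf followed by a number, and Tnf, Lta, Ltb, Fas, Faslg, Ltbr, Ngfr, Eda2r, Edar and Cd27. The rule found 40 genes, 15 ligands and 25 receptors, among 31368 in the count table. The CKD group (chronic kidney disease) held 3 libraries of kidney tissue and the Sham group another 3. All rats were Sprague-Dawley males with a WT genotype, 8 weeks old by the design text. How CKD was brought about, and what the Sham rats underwent, was not stated in the labels. Whether each library stands for its own animal is not stated either, so the p-values speak only for the scatter among these 6 libraries, part of which may be technical.

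Ligands of the TNF superfamily are mostly membrane proteins that act as trimers, and some are cleaved from the cell surface. Their receptors fall into main classes by how they signal. Receptors with a death domain recruit adaptors such as FADD and caspases, and the others recruit TRAF proteins that lead to NF-kB and MAP kinase signalling. In kidney the family is known for tubular cell death, for the inflammatory response of the epithelium to TNF and TWEAK, and for the survival of lymphocytes that enter the tissue.

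Library totals ran from 17240755 to 17503644 counts in CKD and from 15918035 to 17409090 in Sham. Mitochondrial genes took 8.83% to 10.8% of counts in CKD and 14.4% to 37.9% in Sham, with the highest share in Sham 2. Kidney markers were present in every library, and 7 proximal tubule genes summed to between 8416 and 11590 CPM in CKD and between 4643 and 16080 CPM in Sham. CPM is a count divided by the library size in megareads, after scaling by TMM factors. In bulk tissue a change in the number of cells of a type and a change in RNA per cell cannot be told apart.

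Of the 40 genes, 26 had enough counts to be tested and 14 did not. A gene could pass that filter through the group in which it was high, so counts over the tested members describe them and are no support for a direction. By edgeR's quasi-likelihood test over all 15371 genes tested, 2 members rose in CKD at an adjusted p under 0.05, the ligand Tnfsf10 and the receptor Eda2r, and 0 fell. Over all genes tested 3.82% were called, 2.67% higher and 1.15% lower. At an unadjusted p under 0.05, 9 members were higher and 2 lower in edgeR, where the shares over all genes were 13.5% and 10.3%. DESeq2 called 7 members higher and 2 lower, where it called 7.51% of all genes with an adjusted p higher and 6.01% lower. The 7 were Eda2r, Faslg, Ltb, Tnfrsf11a, Tnfsf10, Tnfsf13b and Tnfsf8, and the 2 were Tnfrsf11b and Tnfrsf12a. With limma-voom 1 member was higher (Eda2r) and 0 lower, against 0.781% and 0.488% of all genes tested. All 3 CKD libraries lay above all 3 Sham libraries in 9 of the 26 tested members (18.8% of all genes tested), and below them in 0 (12.4%). The median log2 fold change, CKD minus Sham, was 0.71 over the 26 members, also with Eda2r at its lower bound, and -0.01 over all genes. Scaling by library totals alone moved these medians to 1.14 and 0.41. The members' median was 0.403 without CKD 1 and 1.28 without Sham 2. The edgeR count of 2 higher was 0 without CKD 1, CKD 2, Sham 2 or Sham 3, and 4 without Sham 1, where 2 were lower. Over all genes edgeR called 0 higher and 0 lower without CKD 1 or CKD 2. It called 0 and 2 without Sham 2, 1 and 6 without Sham 3, and 789 and 922 without Sham 1.

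**Figure D1:**
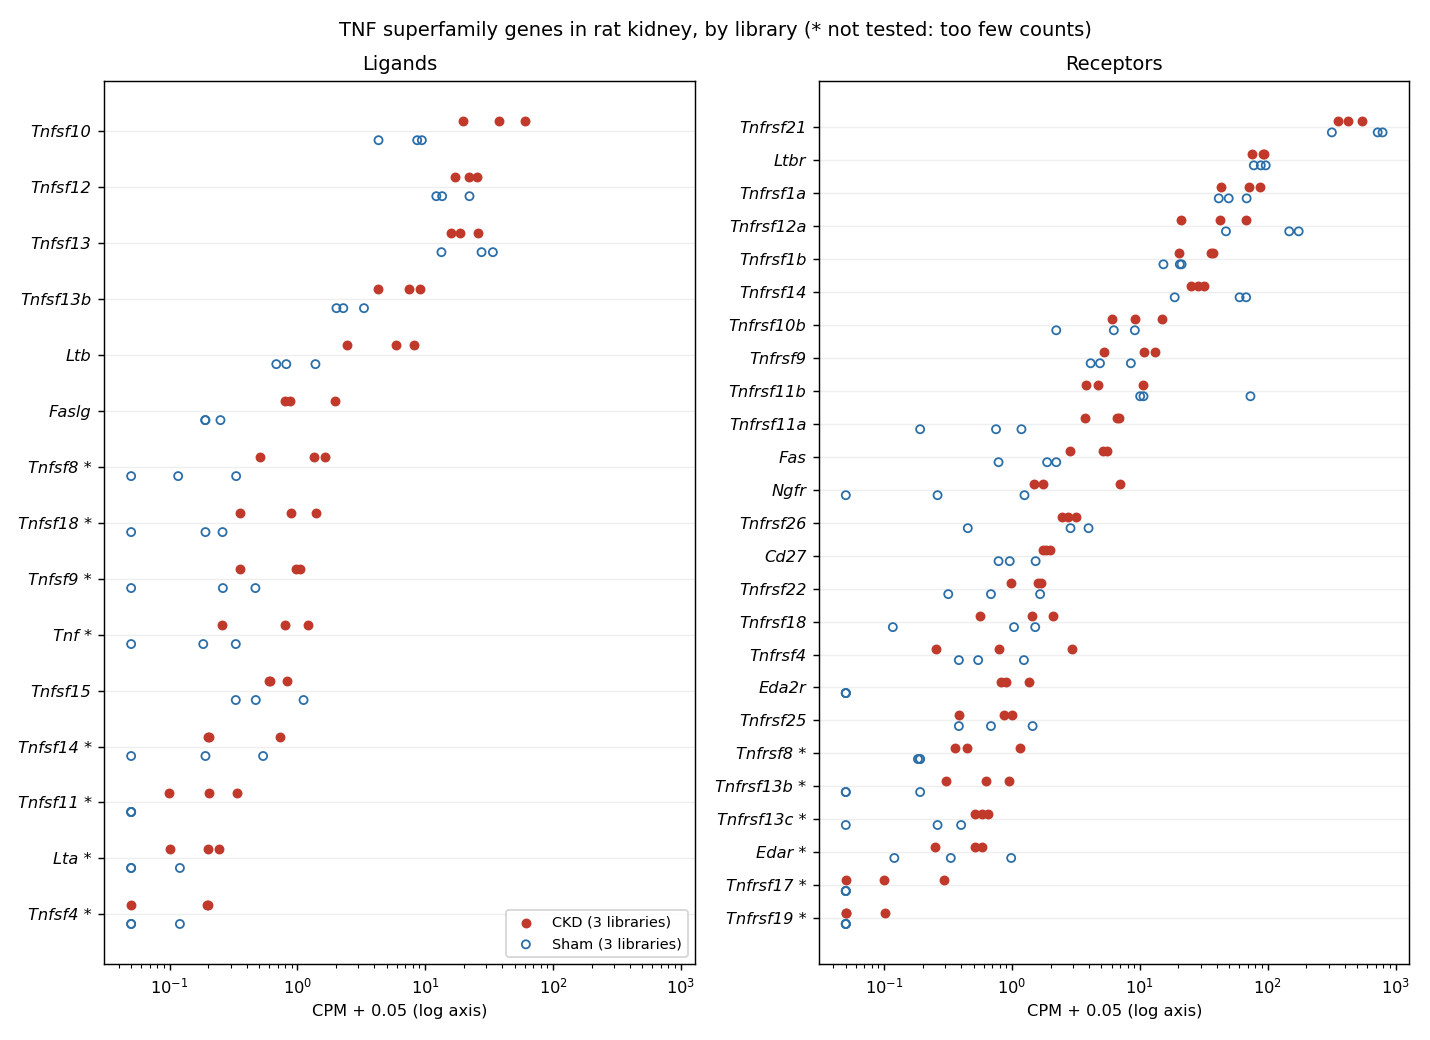
CPM plus 0.05 on a log axis for the 15 ligands and 25 receptors, with filled red points for the 3 CKD libraries and open blue points for the 3 Sham libraries. Tnfsf10, Ltb, Faslg and Tnfsf13b show no overlap between the groups, and Tnfrsf21 is the most abundant member in both.

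Tnfsf10 encodes TRAIL, a ligand that can trigger apoptosis through receptors with a death domain. It had 38.0, 60.2 and 19.8 CPM in CKD 1, 2 and 3, against 8.60, 4.26 and 9.36 CPM in Sham 1, 2 and 3. The lowest CKD library thus held more than the highest Sham library. Its log2 fold change was 2.41 ± 0.47 (SE; edgeR adjusted p = 0.0426), and it ran from 1.97 to 2.73 when single libraries were left out. The call was lost without CKD 1, CKD 2, Sham 2 or Sham 3 (edgeR adjusted p from 0.071 to 0.171) and in limma-voom (adjusted p = 0.0651).

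Tnfrsf10b, the receptor that carries the death signal of TRAIL, had 14.7, 9.14 and 6.04 CPM in CKD against 6.20, 2.17 and 9.08 CPM in Sham, and the groups overlapped (log2 fold change 0.78 ± 0.55, edgeR adjusted p = 0.432). Tnfrsf11b encodes osteoprotegerin, a secreted receptor that binds TRAIL and the bone cytokine RANKL without signalling. It had 3.71, 4.62 and 10.5 CPM in CKD against 73.2, 10.6 and 9.99 CPM in Sham. The high Sham value came from Sham 1 alone. Its log2 fold change was -2.32 ± 0.85 (edgeR adjusted p = 0.155) with all libraries and -0.76 without Sham 1.

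Eda2r is the receptor of the A2 form of ectodysplasin, a ligand named for its role in skin appendages. It had 27, 17 and 15 counts in CKD 1, 2 and 3, and 0 counts in each Sham library. With 3 counts over the Sham libraries together as the floor and CKD counts taken as exact, Eda2r was at least 14.2-fold higher in CKD. It was called (edgeR adjusted p = 0.0404), but it had passed the count filter through its CKD libraries alone. A filter of 1 CPM in 3 libraries removed it. Without CKD 1 the bound was 11.7-fold. The call was lost without any 1 of CKD 1, CKD 2, CKD 3, Sham 2 or Sham 3 (edgeR adjusted p from 0.0625 to 0.171). The level was low even in CKD, 0.972 ± 0.289 CPM (SD, n = 3). Edar, the receptor of the other form of ectodysplasin, had 11, 4 and 9 counts in CKD and 14, 1 and 4 in Sham and was not tested. Eda, the ligand of both, which the rule did not take, stood at 3.42 ± 0.45 CPM in CKD and 1.84 ± 0.89 CPM in Sham (SD, n = 3 each) without passing (edgeR adjusted p = 0.308).

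The 250 bases before the start of these 2 called genes are shown here with those of 2 further ligands, Ltb and Tnfsf13b, whose windows hold a motif of a signalling factor. Sequences are from RefSeq, build GRCr8, 5′ to 3′ on the strand of the gene. Capitals mark matches to the 4 motifs searched. The Tnfsf10 window lies at chr2:112136689-112136938 (plus strand), Eda2r at chrX:66280621-66280870 (minus strand), Ltb at chr20:3634055-3634304 (minus strand) and Tnfsf13b at chr16:86194500-86194749 (minus strand).
Tnfsf10: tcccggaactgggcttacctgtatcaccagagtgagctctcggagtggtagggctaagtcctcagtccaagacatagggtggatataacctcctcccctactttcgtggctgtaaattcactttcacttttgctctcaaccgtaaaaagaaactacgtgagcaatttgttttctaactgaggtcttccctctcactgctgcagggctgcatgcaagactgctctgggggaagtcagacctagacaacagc
Eda2r: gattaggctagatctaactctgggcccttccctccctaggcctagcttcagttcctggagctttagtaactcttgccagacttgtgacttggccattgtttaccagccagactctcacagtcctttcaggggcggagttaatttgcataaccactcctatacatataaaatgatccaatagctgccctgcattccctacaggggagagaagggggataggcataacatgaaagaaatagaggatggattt
Ltb: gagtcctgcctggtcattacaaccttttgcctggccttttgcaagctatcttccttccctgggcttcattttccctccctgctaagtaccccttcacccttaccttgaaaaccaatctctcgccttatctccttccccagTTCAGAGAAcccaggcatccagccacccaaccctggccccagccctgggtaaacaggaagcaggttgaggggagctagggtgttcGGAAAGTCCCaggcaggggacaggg
Tnfsf13b: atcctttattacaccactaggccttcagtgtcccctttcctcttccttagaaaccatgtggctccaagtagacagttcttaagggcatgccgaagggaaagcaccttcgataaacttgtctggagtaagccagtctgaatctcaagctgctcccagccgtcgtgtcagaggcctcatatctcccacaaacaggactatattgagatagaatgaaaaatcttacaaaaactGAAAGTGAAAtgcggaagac

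Windows of 300 bases, 250 before and 50 after the start, were matched by symbol for 31 of the 40 members. Both strands were searched for the NF-kB motif (GGGA, any base, TTTCC), the AP-1 motif TGANTCA, the interferon response motif (GAAA, any 2 bases, GAAA) and the STAT motif TTCNNNGAA. The NF-kB letters stood in 1 of the 31, Ltb, on its opposite strand, and in 0.362% of all 33469 windows. The interferon letters stood in 4, Tnfsf13b, Fas, Tnfrsf1b and Tnfrsf17, and in 3.92% of all windows. AP-1 letters were in 3, Fas, Tnfrsf1b and Tnfrsf8 (7.33% of all windows), and STAT letters in 3, Tnfrsf12a, Lta and Ltb (8.87%). The windows of Tnfsf10 and Eda2r held none of the 4. A match is a description of letters and not a measured site.

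Ltb encodes the membrane anchor of lymphotoxin, the ligand by which lymphocytes organise lymphoid tissue. It had 8.10, 5.81 and 2.41 CPM in CKD against 1.33, 0.769 and 0.633 CPM in Sham. The groups did not overlap, and CKD 3 was the nearest to Sham (log2 fold change 2.57 ± 0.58, edgeR adjusted p = 0.0547). Ltb passed without CKD 3 (edgeR adjusted p = 0.0436) and without Sham 1 (0.0418). With all 6 libraries it passed in DESeq2 (adjusted p = 0.000893) but not in limma-voom (adjusted p = 0.0922). In edgeR it also passed without a filter and with library totals alone. Lta, its partner in the mixed trimers, had 4, 3 and 1 counts in CKD and 0, 0 and 1 in Sham. Ltbr, the lymphotoxin receptor, stood at 86.3 ± 10.01 CPM in CKD and 87.5 ± 9.34 CPM in Sham (SD, n = 3 each). Its log2 fold change was -0.02 ± 0.19 (edgeR adjusted p = 0.964), or 0.41 with library totals alone. Ltbr thus had the narrowest standard error among the 26 tested members. Tnfsf14, a ligand of Ltbr, had 14, 3 and 3 counts in CKD against 0, 7 and 2 in Sham. Tnfrsf14, the other receptor of Tnfsf14, had 28.4, 31.8 and 25.1 CPM in CKD against 18.7, 67.8 and 60.2 CPM in Sham, with Sham 1 below every CKD library. Its log2 fold change was -0.78 ± 0.44 (edgeR adjusted p = 0.321), and without Sham 1 it was -1.22 and passed (edgeR adjusted p = 0.0216).

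Tnfrsf11a encodes RANK, the receptor that drives osteoclast formation and is carried by cells of the macrophage lineage. It had 6.80, 6.61 and 3.69 CPM in CKD against 1.13, 0.699 and 0.141 CPM in Sham, so every CKD library lay above every Sham library. Its log2 fold change of 3.10 ± 0.68 did not pass (edgeR adjusted p = 0.0514), and it passed without Sham 1 (edgeR adjusted p = 0.0324). With all 6 libraries it passed in DESeq2 (adjusted p = 0.000115) but not in limma-voom (adjusted p = 0.0597). In edgeR it also passed without a filter, without robust fitting and with library totals alone. Tnfsf11, the ligand RANKL, had 6, 1 and 3 counts in CKD and 0 in each Sham library, too few to test. Tnfsf11 stood 2.40-fold above the same floor of 3 counts over the Sham libraries, or 1.46-fold without CKD 1, where 4 counts remained. These ratios take the CKD counts as exact, so at such low counts they are no lower bounds. Without a filter Tnfsf11 did not pass (edgeR adjusted p = 0.232).

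Faslg encodes the death ligand of cytotoxic lymphocytes. Its counts were 40, 15 and 16 in CKD against 3, 2 and 2 in Sham (log2 fold change 2.81 ± 0.67, edgeR adjusted p = 0.0596). The 2 groups did not overlap, and CKD 1 held the most. Fas, its receptor with a death domain, had 5.11, 5.52 and 2.77 CPM in CKD against 0.733, 2.17 and 1.83 CPM in Sham. The groups were again apart, with CKD 3 nearest to Sham (log2 fold change 1.5 ± 0.53, edgeR adjusted p = 0.139).

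Tnf, the cytokine that gives the family its name, had 24, 15 and 4 counts in CKD and 2, 4 and 0 in Sham. CKD 3 equalled Sham 2 in counts, and Tnf was not tested with the filter (without a filter, edgeR adjusted p = 0.285). Tnfrsf1a, the widely expressed TNF receptor with a death domain, had 86.5, 71.5 and 42.8 CPM in CKD against 41.3, 49.5 and 68.3 CPM in Sham. The groups overlapped, and the log2 fold change was 0.33 ± 0.31 (edgeR adjusted p = 0.553). Its gene model overlaps Plekhg6 on the opposite strand, so some reads of Tnfrsf1a are uncertain. Tnfrsf1b, the TNF receptor that binds TRAF proteins and is rich on leukocytes and endothelium, had 35.6, 37.1 and 20.1 CPM in CKD against 21.1, 15.2 and 20.5 CPM in Sham. CKD 3 lay among the Sham libraries, while CKD 1 and CKD 2 were above them (log2 fold change 0.71 ± 0.29, edgeR adjusted p = 0.194).

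Tnfsf12 encodes TWEAK, a ligand that acts on injured tubular epithelium. It had 22.1, 25.3 and 17.1 CPM in CKD against 22.1, 12.2 and 13.5 CPM in Sham, and the groups overlapped (log2 fold change 0.43 ± 0.30, edgeR adjusted p = 0.422). Tnfrsf12a, its receptor Fn14, had 67.7, 42.2 and 20.9 CPM in CKD against 47.1, 147 and 175 CPM in Sham. Sham 1 lay within the range of CKD, and Sham 2 and Sham 3 lay above it. The log2 fold change was -1.5 ± 0.56 (edgeR adjusted p = 0.164), and without Sham 1 it was -1.94 and passed (edgeR adjusted p = 0.0425). Reads of Tnfrsf12a are uncertain, because its gene model in the table overlaps those of 3 other genes, Hcfc1r1, Thoc6 and Bicdl2. Tnfsf12 and its neighbour Tnfsf13 lie 827 bases apart on the same strand of chromosome 10, so transcripts that run through both could be shared between them.

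**Figure D2:**
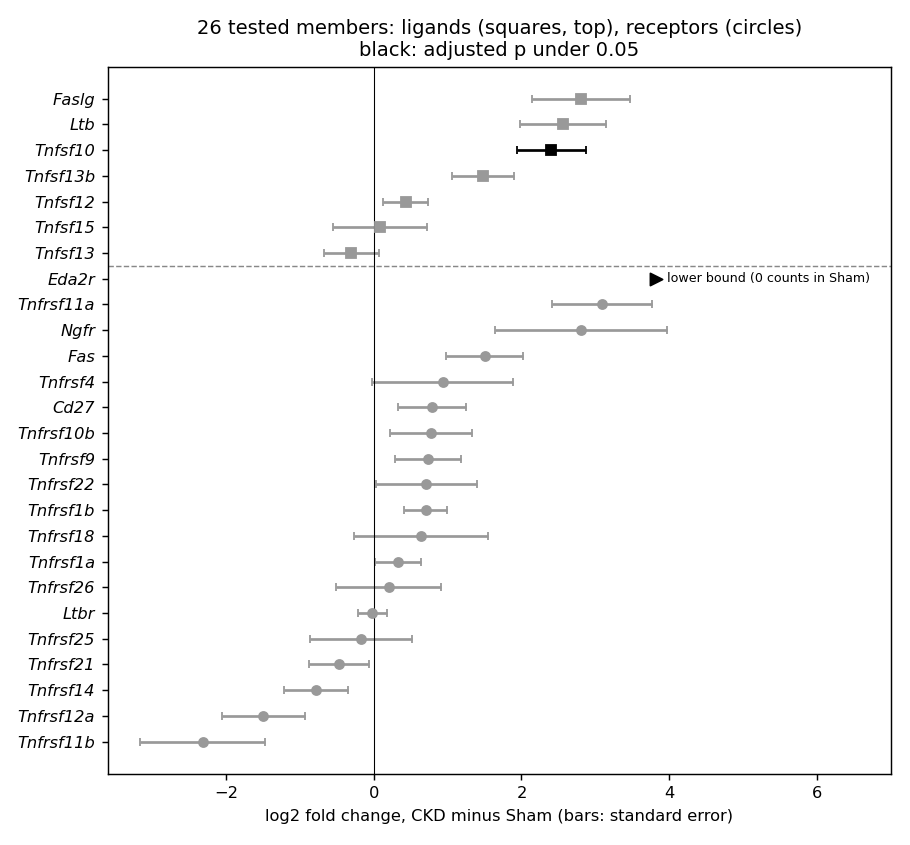
Log2 fold change, CKD minus Sham, with its standard error for the 26 tested members, ligands above the dashed line and receptors below it. Black marks the 2 members that passed, Tnfsf10 and Eda2r; the triangle of Eda2r is the lower bound of at least 14.2-fold, and the other 24 members are grey.

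Tnfsf13b encodes BAFF, a survival factor of B cells made by myeloid and stromal cells. It had 9.12, 7.45 and 4.25 CPM in CKD against 3.27, 2.24 and 1.97 CPM in Sham. The groups did not overlap (log2 fold change 1.48 ± 0.42, edgeR adjusted p = 0.0866). Tnfsf13, the plasma cell factor APRIL, had 539, 378 and 308 counts in CKD against 413, 191 and 480 in Sham, with overlapping groups and a log2 fold change of -0.30 ± 0.37, or 0.11 with library totals alone (edgeR adjusted p = 0.664). The receptors of both on B cells had few counts. Tnfrsf13b (TACI) had 12, 18 and 5 counts in CKD against 0, 0 and 2 in Sham. Tnfrsf13c, the BAFF receptor, had 11, 12 and 9 counts in CKD against 0, 5 and 3 in Sham. Tnfrsf17, the plasma cell receptor BCMA, had 5, 1 and 0 counts in CKD and 0 in each Sham library. In Tnfrsf13b and Tnfrsf13c the groups did not overlap, but all 3 had too few counts to test. How often untested genes are so placed was not counted.

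Of the members that co-stimulate T cells, Cd27, Tnfrsf4, Tnfrsf9, Tnfrsf18, Tnfrsf25 and the ligand Tnfsf15 were tested, and 0 passed in edgeR, DESeq2 or limma-voom, with 0 also at an unadjusted p under 0.05 in edgeR. Cd27 stood at 1.80 ± 0.12 CPM in CKD and 1.04 ± 0.39 CPM in Sham (SD, n = 3 each) with no overlap between the groups (log2 fold change 0.79 ± 0.46, edgeR adjusted p = 0.34). Tnfrsf9, which is induced on activated T and NK cells, had 13.0, 10.6 and 5.22 CPM in CKD against 4.07, 4.82 and 8.45 CPM in Sham, with CKD 3 among the Sham libraries (edgeR adjusted p = 0.354). Tnfrsf4 (OX40) had 60, 15 and 4 counts in CKD against 5, 17 and 7 in Sham, with overlapping groups (log2 fold change 0.93, edgeR adjusted p = 0.597; -0.48 when CKD 1 was left out). Tnfrsf18 (GITR), a neighbour of Tnfrsf4 on chromosome 5, had 42, 28 and 10 counts in CKD against 1, 21 and 14 in Sham (edgeR adjusted p = 0.708). Tnfrsf25, a receptor with a death domain, and its ligand Tnfsf15 had at most 20 counts in any library. The log2 fold change of Tnfrsf25 was -0.17 ± 0.69, or 0.25 with library totals alone.

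The remaining partners of T cell receptors were not tested. Tnfsf8, a ligand on activated T cells, had 27, 32 and 9 counts in CKD against 1, 0 and 4 in Sham, and its receptor Tnfrsf8 had 23, 8 and 6 in CKD against 2, 2 and 2 in Sham. Tnfsf18, the ligand of Tnfrsf18, had 28, 17 and 6 counts in CKD against 0, 3 and 2 in Sham. These 3 genes did not overlap between groups, but at such low counts a few reads decide this. No share over all untested genes was taken to set beside it. DESeq2 called Tnfsf8 higher, as it did 7.51% of all genes with an adjusted p. Tnfsf9, the ligand of Tnfrsf9, had 19, 20 and 6 counts in CKD against 0, 6 and 3 in Sham. Tnfsf4, the ligand of Tnfrsf4, had 3, 3 and 0 counts in CKD against 0, 0 and 1 in Sham.

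Ngfr encodes the low-affinity neurotrophin receptor, found on nerves and on some fibroblasts and mural cells. It had 6.95, 1.69 and 1.43 CPM in CKD against 1.20, 0 and 0.211 CPM in Sham. The groups did not overlap, but CKD 1 was far above the other libraries (log2 fold change 2.80 ± 1.16, edgeR adjusted p = 0.197), and the value was 1.71 without CKD 1 and 4.86 without Sham 1. Tnfrsf21, a receptor with a death domain known from neurons and lymphocytes, had 352, 425 and 549 CPM in CKD against 792, 318 and 725 CPM in Sham. Sham 2 lay below every CKD library and the other two Sham libraries above, and the log2 fold change was -0.47 ± 0.40 (edgeR adjusted p = 0.521). Tnfrsf22, known in mouse as a decoy receptor for TRAIL, had 34, 31 and 18 counts in CKD against 4, 23 and 9 in Sham. Its neighbour Tnfrsf26 had 64, 54 and 47 counts in CKD against 6, 56 and 40 in Sham. Their log2 fold changes were 0.71 ± 0.68 and 0.20 ± 0.71 (edgeR adjusted p = 0.569 and 0.892), and that of Tnfrsf26 was -0.35 without Sham 1. Both belong to a cluster of related genes, so their counts are uncertain. Tnfrsf19, a receptor of developing epithelia and brain, had 1 count in CKD 3 and 0 elsewhere.

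Levels of different genes were compared per length. Per kilobase of gene length, Tnfrsf21 had the highest mean in both groups, 101 ± 22.9 CPM per kilobase in CKD and 140 ± 59.0 in Sham (SD, n = 3 each). Next came Tnfrsf12a at 40.9 ± 21.9 in CKD and 115 ± 63.0 in Sham, Ltbr at 32.7 ± 3.80 in CKD and 33.2 ± 3.54 in Sham, and Tnfrsf1a at 28.5 ± 9.45 in CKD and 22.6 ± 5.89 in Sham, all in CPM per kilobase. In CKD Tnfrsf21 did not overlap Tnfrsf12a, while the ranges of Tnfrsf12a, Ltbr, Tnfrsf1a and Tnfsf10 ran into each other. In Sham the ranges of Tnfrsf21 and Tnfrsf12a overlapped. Tnfsf10 was the first ligand in CKD, rank 5 of 40 at 27.7 ± 14.3 CPM per kilobase, and rank 9 in Sham at 5.23 ± 1.94. In Sham the first ligand was Tnfsf13 at 15.2 ± 6.39 CPM per kilobase.

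In the coordinates of the deposited table several members are neighbours. Lta, Tnf and Ltb lie within a few kilobases of each other on chromosome 20, with gaps of 1.2 and 2.9 kilobases. Of these neighbours Ltb had 168, 117 and 47 counts in CKD, against 20, 11 and 9 in Sham, while Tnf and Lta had at most 24 counts in any library. Cd27, Ltbr and Tnfrsf1a adjoin on chromosome 4, with gaps of 73.3 and 29.3 kilobases, and had log2 fold changes of 0.79, -0.02 and 0.33. Tnfsf4, Tnfsf18 and Faslg lie on chromosome 13, with gaps of 84.5 and 312 kilobases. Tnfsf10 itself lies on chromosome 2 from 110207916 to 110225135 and Eda2r on chromosome X from 62228229 to 62269268. These positions are as deposited: Rnor 6.0 is the build the submitters' processing notes list, and whether the table follows it is uncertain.

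**Figure D3:**
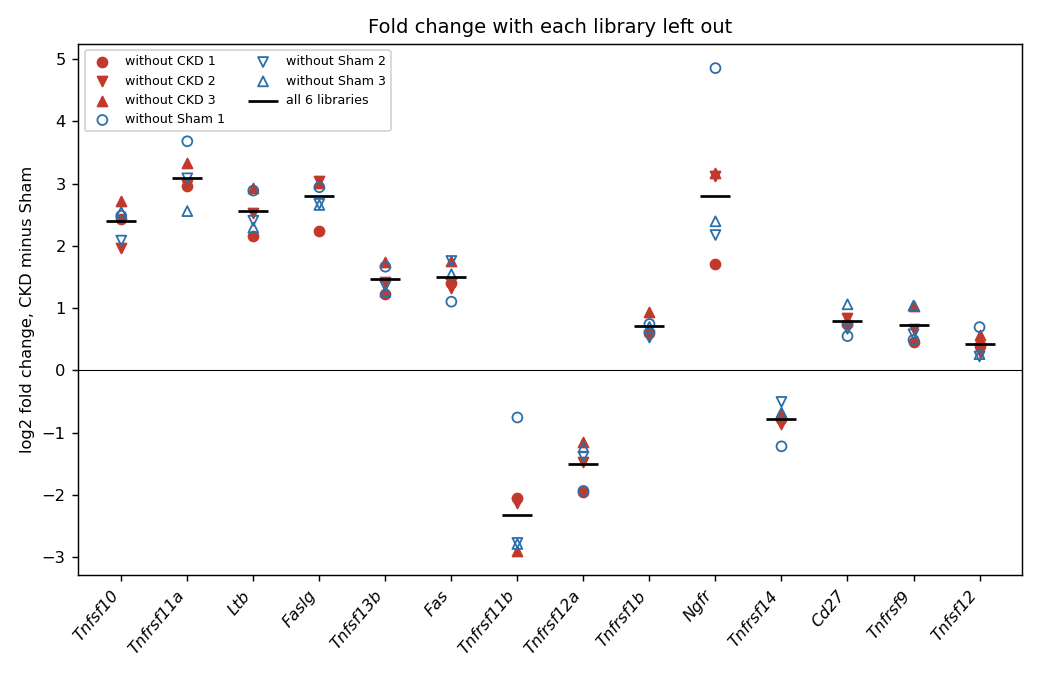
Log2 fold change, CKD minus Sham, of the 14 tested members with the smallest p apart from Eda2r, with all 6 libraries (black bar) and with each library left out (filled red for CKD, open blue for Sham). Tnfsf10 stays between 1.97 and 2.73, while Tnfrsf11b is -0.76 without Sham 1 and Ngfr runs from 1.71 to 4.86.

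Ligands were set beside their receptors in 25 known pairs. In 6 pairs every CKD library lay above every Sham library for both partners, without regard to whether either passed. These pairs were Faslg with Fas, Tnfsf11 with Tnfrsf11a, Tnfsf8 with Tnfrsf8, Tnfsf13b with Tnfrsf13b and with Tnfrsf13c, and Eda with Eda2r, so Tnfsf13b enters 2 of the 6. Among all genes tested, 18.8% of single genes were placed so. That share holds for single genes that passed the count filter, and Tnfsf11, Tnfsf8, Tnfrsf8, Tnfrsf13b and Tnfrsf13c did not pass it. It is therefore no measure of how many pairs would be so placed, and the pair counts are descriptions only. In 7 pairs every CKD library lay above every Sham library for the ligand alone, among them Ltb with Ltbr and Tnfsf10 with Tnfrsf10b. In 1 pair this held for the receptor alone. Tnfsf10 enters the 7 with Tnfrsf10b and with Tnfrsf11b, and Tnfsf11, Tnfsf13b and Eda stand in both the 6 and the 7. The pairs are thus not independent of each other.

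The pathway downstream was followed in lists chosen for it. Over all genes tested edgeR called 2.67% higher and 1.15% lower, and 13.5% and 10.3% at an unadjusted p under 0.05. DESeq2 called 7.51% of all genes with an adjusted p higher and 6.01% lower. With limma-voom these shares were 0.781% and 0.488%. Counts from the main edgeR fit, DESeq2 and limma-voom in every list below, also those of cell markers, are to be read beside these shares. Counts from other settings have other backgrounds over all genes, against 411 higher and 176 lower in the main fit. These were 340 higher and 73 lower without CKD 3, 789 and 922 without Sham 1, and 2047 and 181 with library totals alone. Without CKD 1, CKD 2, Sham 2 or Sham 3 at most 1 gene was called higher and at most 6 lower. Of 17 tested adaptors that bind the receptors or their complexes, 1 rose and 0 fell in edgeR, and 4 were higher and 0 lower at an unadjusted p under 0.05. Traf1, an adaptor that NF-kB itself induces, rose to 102, 114 and 55 counts in CKD against 15, 11 and 6 in Sham (log2 fold change 2.60 ± 0.51, edgeR adjusted p = 0.0426). No library of one group reached the other. Traf1 lost its call without CKD 1, CKD 2, Sham 2 or Sham 3 and in limma-voom. Birc3, a ubiquitin ligase of the TNF receptor complex, stood at 27.1 ± 14.9 CPM in CKD and 5.65 ± 2.63 CPM in Sham (SD, n = 3 each; edgeR adjusted p = 0.0672). DESeq2 called Traf1, Birc3, Fadd and Casp8 higher. The median log2 fold change of the adaptors was 0.20, but 0.0618 without Sham 2, 0.321 without Sham 3 and 0.615 with library totals alone. The count called was 2 without CKD 3, 3 without Sham 1 and 4 with library totals alone.

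Of 16 tested genes known to be induced by TNF through NF-kB, 0 passed in edgeR. At an unadjusted p under 0.05, 5 were higher and 2 lower, where the shares over all genes were 13.5% and 10.3%. DESeq2 called 3 higher and 2 lower, and limma-voom called 0. Ccl2, the monocyte chemokine, had 165, 118 and 37 counts in CKD against 13, 4 and 11 in Sham (edgeR adjusted p = 0.0548). Mmp9, a matrix protease, had 40, 18 and 79 counts in CKD against 49, 815 and 528 in Sham (edgeR adjusted p = 0.074). Of the inhibitors that hold NF-kB in check, Nfkbie stood at 37.4 ± 11.8 CPM in CKD and 13.8 ± 5.81 CPM in Sham, with every CKD library above every Sham library (SD, n = 3 each; edgeR adjusted p = 0.0806). Nfkbia lay the other way and stood at 70.7 ± 19.2 CPM in CKD and 130 ± 14.7 CPM in Sham (SD, n = 3 each; edgeR adjusted p = 0.0871). DESeq2 called Nfkbie higher and Nfkbia lower. The median of this list was 0.66, or 1.1 with library totals alone. In edgeR Ccl2 was called higher without CKD 3, and Nfkbie and Icam1 higher and Mmp9 lower without Sham 1.

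Among 8 genes of the alternative NF-kB route, which LTBR, BAFF receptor and RANK engage, 0 passed in edgeR and limma-voom (2 higher and 1 lower at an unadjusted p under 0.05) and 1, Birc3, in DESeq2. The members with the smallest p were Birc3 and Chuk, a kinase of that route, at 66.6 ± 3.58 CPM in CKD and 106 ± 28.6 CPM in Sham (SD, n = 3 each). Of 5 genes of ligand shedding 0 passed in edgeR and limma-voom (1 higher and 1 lower unadjusted), and DESeq2 called 1, Rhbdf1, lower. Adam17, the protease that releases TNF, stood at 48.5 ± 6.72 CPM in CKD and 29.1 ± 9.77 CPM in Sham (edgeR adjusted p = 0.162), and Rhbdf1, which helps to mature that protease, at 53.5 ± 1.32 CPM in CKD and 167 ± 92.4 CPM in Sham (edgeR adjusted p = 0.0799; SD, n = 3 each). Of 4 necroptosis genes 0 passed in edgeR and limma-voom (3 higher unadjusted), and DESeq2 called Ripk3 and Zbp1 higher. Zbp1, a nucleic acid sensor, had 147, 98 and 32 counts in CKD against 8, 12 and 3 in Sham (edgeR adjusted p = 0.0583). Ripk3, the kinase of necroptosis, stood at 8.71 ± 4.36 CPM in CKD and 3.30 ± 0.61 CPM in Sham (SD, n = 3 each; edgeR adjusted p = 0.129). Of 5 tested relatives outside the naming rule 0 passed in edgeR, DESeq2 or limma-voom (1 higher unadjusted in edgeR). The lowest p among them was that of Cd40, the B cell and macrophage receptor for T cell help, at 3.58 ± 1.47 CPM in CKD and 1.44 ± 0.55 CPM in Sham (SD, n = 3 each; edgeR adjusted p = 0.17). Among these smaller lists edgeR called Birc3 higher without CKD 3 or Sham 1, Zbp1 higher without CKD 3, and Rhbdf1 lower without Sham 1.

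Markers of some immune cells were among the genes that rose. Summed levels of 9 T and NK cell markers were 62.8, 43.5 and 28.9 CPM in CKD 1, 2 and 3, against 12.2 to 13.2 CPM in Sham. Those of 7 B and plasma cell markers were 64.5 to 102 CPM in CKD against 9.01 to 31.9 CPM in Sham. Those of 10 macrophage and dendritic cell markers were 960 to 1810 CPM in CKD against 220 to 742 CPM in Sham. None of the markers in these 3 lists was at 0 throughout a group. Cd74 made up most of the macrophage sum, at a mean of 1164 CPM in CKD and 422 CPM in Sham (edgeR adjusted p = 0.144). Jchain made up most of the B and plasma cell sum, at 78.6 CPM in CKD and 15.8 CPM in Sham (edgeR adjusted p = 0.0697). In edgeR 2 of 9, 1 of 5 and 4 of 10 tested markers of these lists rose, where 2.67% of all genes tested did. In each list 0 rose when CKD 1, CKD 2, Sham 2 or Sham 3 was left out, where at most 1 of all genes rose. The list counts were 1, 0 and 6 without CKD 3, and 3, 2 and 7 without Sham 1. Over all genes 340 rose without CKD 3 and 789 without Sham 1. For 6 fibroblast and mural cell markers the sums were 564 to 826 CPM in CKD against 96.0 to 349 CPM in Sham, and 1 of 6, Col1a1, rose in edgeR. That call was lost with RLE factors, with mitochondrial genes removed, with the filter of 1 CPM in 3 libraries, in limma-voom and without any library other than Sham 1; without Sham 1 there were 2. Tubule markers beyond the proximal segment lay the other way. All 7 distal and collecting duct markers had a negative log2 fold change (median -1.21, or -0.577 without Sham 2), with sums of 1038 to 1145 CPM in CKD and 798 to 5386 CPM in Sham. In edgeR 0 of the 7 passed, and 4 were lower at an unadjusted p under 0.05 (10.3% of all genes tested). DESeq2 called 4 lower (6.01% of all genes with an adjusted p) and limma-voom 0. Without Sham 1 edgeR called 1, Atp6v1b1, lower. All 4 thick ascending limb markers were also negative (median -0.91, or -0.311 without Sham 1), with sums of 1235 to 3038 CPM in CKD and 1885 to 7818 CPM in Sham. Of these 4, 0 passed in edgeR or limma-voom, 1 was lower unadjusted in edgeR, and DESeq2 called 1, Cldn16, lower. Neutrophil markers summed to 2.1 to 5.45 CPM in CKD and 2.20 to 20.3 CPM in Sham, with Mpo and Elane at 0 in Sham. Of the 3 tested, 0 passed in edgeR. S100a9 was lower in every CKD library than in every Sham library (log2 fold change -4.04 ± 0.90, edgeR adjusted p = 0.0537). DESeq2, and edgeR without Sham 1, called S100a8 and S100a9 lower, while limma-voom called 0. CKD 3 was the lowest of the 3 CKD libraries in 20 of the 26 tested members, against 40.2% of all genes tested, and also in the T and NK, B and plasma, macrophage and fibroblast sums. The part of cell numbers in the member results was not tested.

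**Figure D4:**
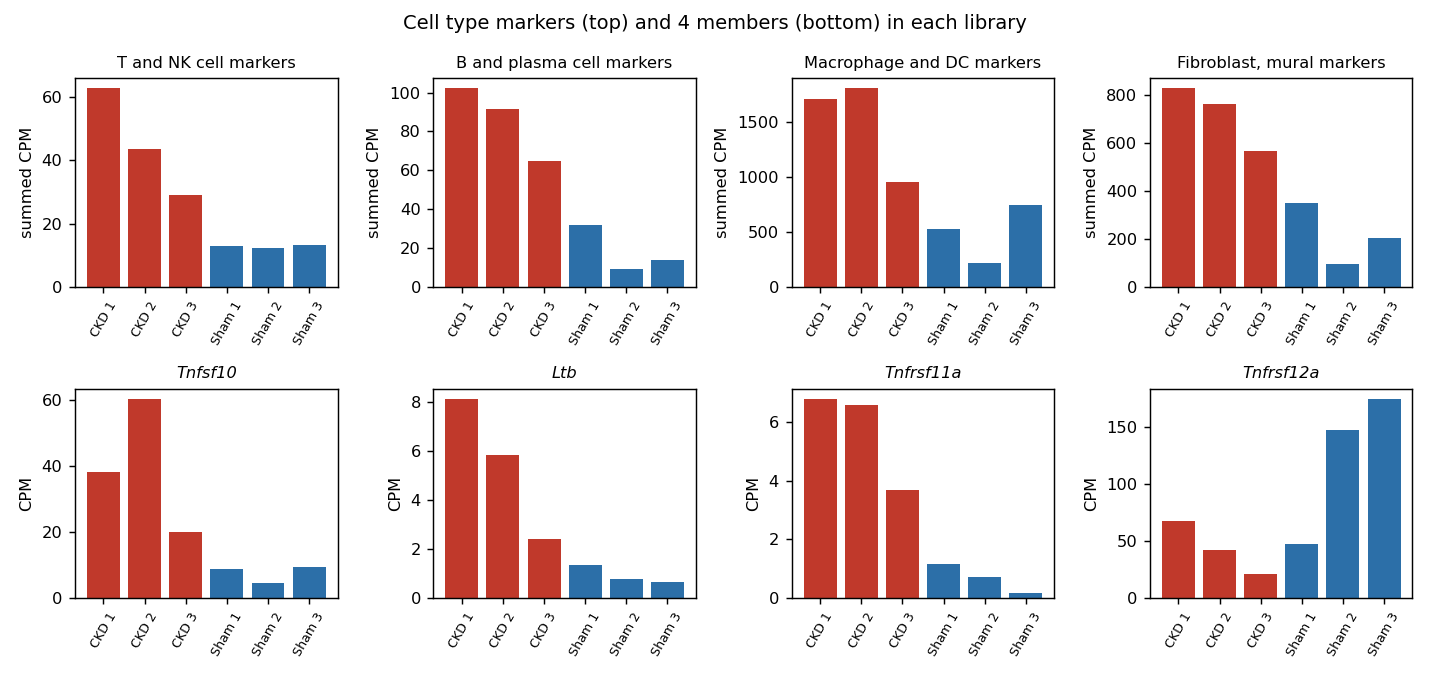
Summed CPM of 4 marker lists (top) and CPM of Tnfsf10, Ltb, Tnfrsf11a and Tnfrsf12a (bottom) in each library, CKD in red and Sham in blue, with bars from 0. CKD 3 has the lowest T and NK cell sum of CKD, 28.9 CPM, and the lowest Ltb, 2.41 CPM, while Tnfrsf12a is highest in Sham 3 at 175 CPM.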

How the data were processed

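RNA of rat kidney was sequenced in 3 CKD and 3 Sham libraries made with the VAHTS Universal V5 kit, per the labels' protocols. The values deposited are raw gene counts, unnormalized. The submitters' processing notes list HTSeq 0.11.2, HISAT2 2.1.0, fastp 0.20.1 and Rnor 6.0. No strand setting was stated, so overlapping genes may share reads. The deposited table also holds gene lengths, used as given, and 0 of its columns belonged to other series.

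Columns were matched to libraries by title. Within groups, pairs of libraries differed by more than sampling noise. Chi-square units per degree of freedom were 30.9 to 67.8 in CKD and 139.4 to 330.1 in Sham. Genes were kept by filterByExpr (minimum count 10, minimum total 15). A quasi-likelihood model with group as its term, TMM factors and robust empirical Bayes was fitted to all genes (edgeR 4.0.16, R 4.3.3). The Benjamini-Hochberg method adjusted p over all genes tested, with a threshold of 0.05. The common biological coefficient of variation was 37.5%. Alternatives included DESeq2 1.42.0 and limma-voom (limma 3.58.1). Precision is limited by 3 libraries per group, and 3 counts was the floor of detection, which covers counting error in Sham only.

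The members, lists and tests were chosen with earlier results of these data known. Members named with full values were those past the threshold, then those with the smallest p up to 24, and 13 chosen for their roles; of each pathway list, those past the threshold or else the 2 with the smallest p. The other members are named with their counts, and further genes named were chosen after their values were seen.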

Additional observations from a re-analysis of the deposited data

How the results depend on the processing

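The 2 members called higher and 0 called lower stayed the same with RLE factors or mitochondrial genes removed, and became 3 and 0 without robust fitting. Over all genes 411 were higher and 176 lower. Library totals alone gave 2047 genes higher, 8 members higher, and log2 fold changes of 0.11 for Tnfsf13, 0.25 for Tnfrsf25 and 0.41 for Ltbr. No filter gave 4 members higher, and a filter of 1 CPM in 3 libraries gave 1, since it removed Eda2r. DESeq2 gave 1356 genes higher and 1084 lower, with 7 members higher and 2 lower. With limma-voom these were 120 and 75 genes and 1 member. Leaving out single libraries gave 0 to 789 genes higher and 0 to 922 lower, and 0 to 4 members higher and 0 to 2 lower; log2 fold changes ran from -0.48 to 1.57 for Tnfrsf4, from -0.58 to 0.50 for Tnfrsf25, from -0.16 to 0.0799 for Ltbr and from -0.35 to 0.73 for Tnfrsf26. The cause of these shifts was not tested. CKD and Sham share replicate numbers without a stated pairing. The deviations of same-numbered libraries correlated at -0.21, 0.0045 and -0.16, so the numbers were not taken as pairs; with the replicate number as a block 4 genes were higher and 6 lower, and 0 members higher. At these depths the 14 members not tested had at most 32 counts in any library, which limits what could be detected in them. The tested Eda2r, Tnfrsf25 and Tnfsf15 were no higher, with at most 27, 20 and 16 counts in any library.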
